A study of Rattus norvegicus with 18 samples.

Results

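The genes described here carry the synthesis of nitric oxide and the handling of arginine and tetrahydrobiopterin in primary rat glia treated with fibrils of amyloid β-protein (Aβ). They are 10 genes taken by their symbols from the tables of counts, Nos2, Gch1, Pts, Spr, Arg1, Arg2, Ass1, Asl, Slc7a1 and Slc7a2, of the 16704 symbols that the astrocyte and the microglia tables share. All 10 were listed in both cell types. The choice was made by name and by known function, not by a threshold on these data, but with earlier results of these data known.

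RNA was sequenced from cultured astrocytes and microglia of wild-type Sprague-Dawley rats, taken from the cortex of pups at postnatal day 2, in 18 libraries with 3 replicates in each of 6 groups. The cells of each type were left without fibrils (control), were given Aβ42 fibrils or were given Aβ40 fibrils, each at 25 µM for 24 h in medium without serum. Microglia were the cells shaken off mixed glial cultures and astrocytes the layer that stayed behind, so each culture can hold cells of the other type. No source states that replicates were separate litters or cultures, and the p-values then measure the spread between these libraries alone.

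Nitric oxide is made from arginine by the inducible synthase Nos2, which needs tetrahydrobiopterin as a cofactor. Gch1 carries out the first and rate-limiting step of the synthesis of that cofactor, and Pts and Spr the following steps. The arginases Arg1 and Arg2 use the same arginine to make ornithine and urea, Ass1 and Asl rebuild arginine from citrulline, and Slc7a1 and Slc7a2 are cationic amino acid transporters that bring arginine into the cell. In microglia and macrophages of rodents, Nos2 and Arg1 are widely used as a pair of markers for opposite kinds of activation.

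The libraries held between 2271834 and 22274367 counts on genes. Levels are scaled CPM, counts relative to the library total after TMM scaling, and the detection limit was set at 3 counts in a library, which corresponded to between 0.130 and 1.38 scaled CPM. Such limits cover counting error only. Fold changes come from edgeR's quasi-likelihood fit of the 9 libraries of a cell type (11690 genes in astrocytes, 10837 in microglia), are given as log2 ± SE, and are called at a Benjamini-Hochberg adjusted p under 0.05. In astrocytes Arg1 did not pass the filter on low counts, so 9 of the 10 genes were tested there and 10 in microglia. Genes are compared with themselves between groups and not with each other, since the tables give no gene length.

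One library went against its label. The microglia library labelled Aβ42 replicate 1 had a mean Pearson r of 0.98 with the 3 Aβ40 libraries and of 0.96 with the other Aβ42 libraries, across 10837 genes on a log2 scale, while the other Aβ42 libraries had an r of 0.996 with each other. Its total of 2613723 counts lay within the range of the Aβ40 libraries (2271834 to 4425805), and the other Aβ42 libraries held 22274367 and 17687416. Most results that use this library are also given without it. The cell type labels were borne out by summed markers. The sum of 10 microglial markers was 9057 scaled CPM in control microglia and 374 in control astrocytes, that of 10 astrocyte markers 294 and 9099. Markers of further cell types moved with treatment as well. A sum of 10 genes of the oligodendrocyte lineage averaged 2983, 3878 and 3633 scaled CPM in microglia without fibrils, with Aβ42 and with Aβ40 fibrils, and 2646, 1952 and 1969 in astrocytes. The sum of 5 fibroblast genes was 70.0, 170 and 135 in microglia and 164, 73.1 and 109 in astrocytes. The sum of 5 endothelial genes, of which Cldn5 was at 0 in all 18 libraries, was 206, 58.1 and 113 in microglia and between 6.54 and 8.36 in astrocytes. The sum of 5 neuronal genes was 285, 324 and 381 in microglia and 135, 58.0 and 64.8 in astrocytes. The Aβ42 sums in microglia without replicate 1 were 4165, 182, 52.1 and 311, in this order. Their part in the changes reported here was not tested.

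Promoter sequences were at hand for 6 of the 10 genes in RefSeq (GRCr8, 250 bases before to 50 after the start), namely Gch1, Pts, Spr, Ass1, Asl and Slc7a1, and Nos2, Arg1, Arg2 and Slc7a2 had no entry. The files were aligned to an older assembly (rn5), so the coordinates hold for GRCr8 alone. Gch1 (chr15:22917363-22917662, minus strand) and Ass1 (chr3:35149480-35149779, plus strand) are shown because they are the genes among these 6 that rose most, in both cell types and with both fibrils. Capitals mark a match to one of the 6 motifs that were searched.
Gch1: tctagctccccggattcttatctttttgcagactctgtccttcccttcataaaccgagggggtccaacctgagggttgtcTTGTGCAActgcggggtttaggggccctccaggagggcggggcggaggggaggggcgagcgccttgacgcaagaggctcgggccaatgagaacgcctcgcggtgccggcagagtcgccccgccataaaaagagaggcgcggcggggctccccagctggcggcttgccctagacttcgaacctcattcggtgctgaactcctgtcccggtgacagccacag
Ass1: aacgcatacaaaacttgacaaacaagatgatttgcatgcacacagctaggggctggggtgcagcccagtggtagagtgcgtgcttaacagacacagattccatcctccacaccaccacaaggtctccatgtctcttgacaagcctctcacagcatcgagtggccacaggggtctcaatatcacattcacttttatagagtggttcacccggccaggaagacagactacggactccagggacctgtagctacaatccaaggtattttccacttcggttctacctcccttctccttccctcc

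Both strands were searched for an NF-κB motif (GGGA, TT and CC with 1 free base between each, in 1.11% of 33469 promoters of this length), an interferon-stimulated response element (2 runs of GAAA with 2 free bases between, 3.92%), a GAS element (TTCNNNGAA, 8.87%), a C/EBP motif (TTGCNNAA, 10.6%), a CRE (TGACGTCA, 1.83%) and an amino acid response element (TGATGNAA, 3.98%). The Gch1 promoter held 1 match, to the C/EBP motif, at positions -170 to -163 from the start. No match to these letters was found in the window of Ass1, nor in those of Spr and Asl. Slc7a1 held a match to the amino acid response element at -30 to -23, and Pts held matches to the interferon-stimulated response element and to GAS that overlap each other. A match is a run of letters and not a measured site.

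In astrocytes, Nos2 went from near the detection limit to between 316 and 573 scaled CPM with fibrils. The 3 control libraries held 3, 8 and 6 Nos2 counts, or 0.835, 1.91 and 0.422 scaled CPM. With Aβ42 fibrils the levels were 573, 563 and 526 scaled CPM, and with Aβ40 fibrils 316, 341 and 328. No library of one group overlapped those of another. Nos2 rose by 9.39 ± 0.31 on the log2 scale with Aβ42 fibrils and by 8.63 ± 0.30 with Aβ40 fibrils (adjusted p = 5.08e-09 and 1.09e-08 by edgeR's quasi-likelihood test). With so few control counts the size rested on single libraries, at 10.07 and 9.31 without control replicate 2 and at 8.60 and 7.85 without control replicate 3. Nos2 passed the filter on low counts in astrocytes through the fibril-treated libraries, so its calls there are no separate support for a rise.

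In microglia, Nos2 was already present without fibrils, at 45.0, 39.2 and 20.0 scaled CPM in the 3 control libraries. The Aβ40 libraries held 1303, 1194 and 1601 scaled CPM. The Aβ42 libraries held 1453, 454 and 575, so the library labelled Aβ42 replicate 1 lay among the Aβ40 libraries and the other Aβ42 libraries below all of them. Against control, Nos2 rose by 5.29 ± 0.45 (log2) with Aβ40 fibrils (adjusted p = 1.54e-06, edgeR's quasi-likelihood test) and by 4.56 ± 0.44 with Aβ42 fibrils (adjusted p = 3.48e-06), which was 3.87 ± 0.21 without Aβ42 replicate 1 (adjusted p = 1.76e-10).

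Gch1, the entry to cofactor synthesis, rose in all 4 comparisons with control. In astrocytes its scaled CPM was 1.39, 0 and 1.27 in the control libraries, 24.1, 24.8 and 19.2 with Aβ42 fibrils and 20.9, 17.9 and 23.2 with Aβ40 fibrils. The treated groups overlapped each other and lay far above the control libraries. Gch1 passed the filter on low counts in astrocytes through the fibril-treated libraries, so its calls there are no separate support for a rise. The log2 fold changes were 4.47 ± 0.38 for Aβ42 (adjusted p = 4.55e-06, edgeR's quasi-likelihood test) and 4.33 ± 0.38 for Aβ40 (adjusted p = 6.56e-06), and 5.11 and 4.97 without control replicate 3.

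In microglia Gch1 was at 8.83, 5.60 and 8.69 scaled CPM in the control libraries, at 54.0, 109 and 127 with Aβ42 fibrils and at 47.8, 52.1 and 49.2 with Aβ40 fibrils. All Aβ42 libraries lay above all Aβ40 libraries, replicate 1 by the smallest margin. Gch1 rose by 3.66 ± 0.28 (log2) with Aβ42 fibrils (adjusted p = 5.17e-07, edgeR's quasi-likelihood test), by 3.89 ± 0.13 without Aβ42 replicate 1, and by 2.66 ± 0.29 with Aβ40 fibrils (adjusted p = 1.43e-05).

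Pts and Spr complete the cofactor. Pts changed by less than 1 on the log2 scale against control, and Spr fell in microglia with Aβ40 fibrils. Pts averaged 13.4 ± 1.5 scaled CPM (SD, n = 3) in control astrocytes, 10.7 ± 0.58 with Aβ42 and 9.89 ± 0.41 with Aβ40 fibrils. The difference with Aβ40 fibrils, -0.42 ± 0.15 (log2), was called by a narrow margin (adjusted p = 0.0472, edgeR's quasi-likelihood test) and was not called without any single one of control replicates 1 and 2 and the Aβ40 libraries (adjusted p between 0.0571 and 0.135), and that with Aβ42 fibrils was not (-0.32 ± 0.15, adjusted p = 0.125). In microglia Pts was 0.44 ± 0.19 higher with Aβ42 fibrils (adjusted p = 0.0649) and passed without Aβ42 replicate 1 (0.46 ± 0.17, adjusted p = 0.0261) or without control replicate 3 (0.58, adjusted p = 0.0480). Spr was at 10.2, 11.6 and 11.9 scaled CPM in the control microglia libraries, at 6.27, 5.14 and 5.06 with Aβ40 fibrils and at 7.20, 12.4 and 11.2 with Aβ42 fibrils. The Aβ40 libraries all lay below the others, and the log2 fold change against control was -1.01 ± 0.23 (adjusted p = 0.00357). Spr did not pass with Aβ42 fibrils in microglia (-0.02 ± 0.18, adjusted p = 0.935; 0.0786 ± 0.14 without replicate 1) or with either fibril in astrocytes (0.27 ± 0.26 and 0.03 ± 0.26).

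**Figure D1:**
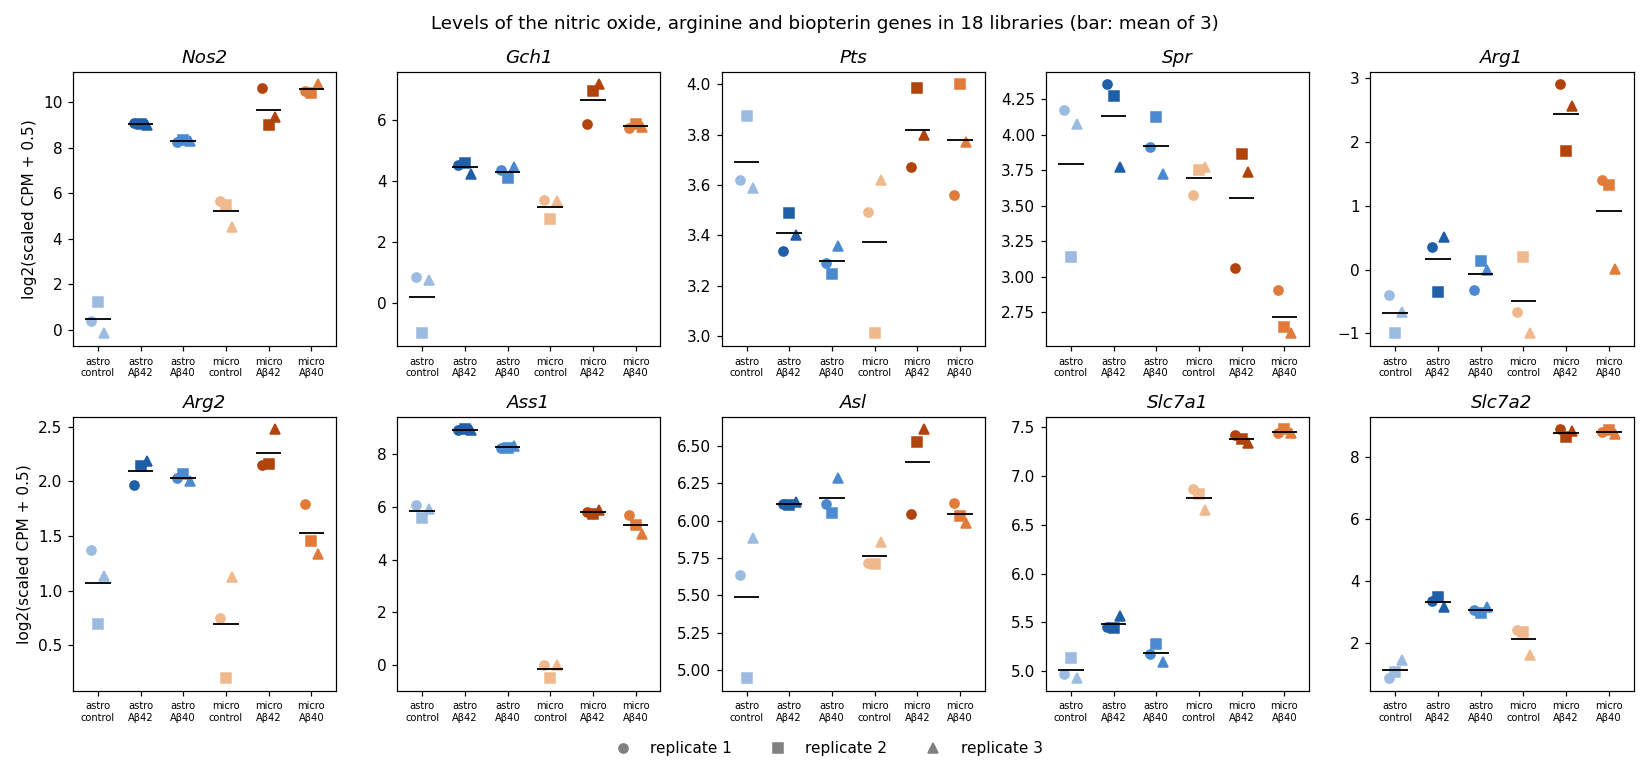
Level of each gene in the 18 libraries as log2(scaled CPM + 0.5), on a scale set over both cell types, with a panel and an own vertical axis per gene, a symbol per replicate and a bar for the mean of 3 log2 values. Nos2 and Ass1 show the widest spans between group means (10.1 and 9.05), Pts and Asl the narrowest (0.52 and 0.91), and the circle of microglia Aβ42 lies beside the Aβ40 libraries in Nos2 and Gch1.

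The arginases were low throughout. Arg1 in control microglia had 1, 3 and 0 counts, in the Aβ42 libraries 16, 64 and 83 counts and in the Aβ40 libraries 8, 8 and 1. In scaled CPM the Aβ42 libraries held 6.40, 2.77 and 4.73 and the Aβ40 libraries 1.93, 1.79 and 0.460, so that all Aβ42 libraries, the doubted one included, lay above all Aβ40 libraries. Since every control library was at or under the detection limit, the change is given as a ratio of summed counts scaled for depth, 19.1 for Aβ42 (95% exact interval 7.32 to 71.0, counting error only; 18.3 without replicate 1) and 7.96 for Aβ40 (2.60 to 32.5). Arg1 passed the filter on low counts in microglia through the Aβ42 libraries, where it was high. Its calls are therefore no separate support for a rise. By edgeR's quasi-likelihood test Arg1 was called with Aβ42 fibrils (adjusted p = 1.61e-04, or 1.55e-05 without replicate 1), and so it was with Aβ40 fibrils (adjusted p = 0.0239). The latter call was lost without control replicate 1 or 3 or Aβ40 replicate 1 or 2 (adjusted p between 0.0707 and 0.0957).

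In astrocytes Arg1 had 1, 0 and 2 counts in the control libraries, 12, 3 and 8 with Aβ42 fibrils and 3, 12 and 8 with Aβ40 fibrils, below the filter on low counts. The depth-scaled ratios were 5.14 (1.55 to 26.8) and 3.89 (1.17 to 20.2). Arg2, the mitochondrial arginase, averaged 1.75 ± 0.52 scaled CPM (SD, n = 3) in control astrocytes and rose by 1.17 ± 0.24 (log2) with Aβ42 and by 1.11 ± 0.23 with Aβ40 fibrils (adjusted p = 0.00258 and 0.00363 by edgeR's quasi-likelihood test). In microglia it was at 1.06, 0.579 and 1.53 scaled CPM in the control libraries, 3.60, 3.51 and 4.45 with Aβ42 fibrils and 2.65, 2.01 and 1.84 with Aβ40 fibrils, 3 groups without overlap. The change passed with Aβ42 fibrils (1.84 ± 0.30, adjusted p = 2.96e-04, edgeR's quasi-likelihood test) and was 1.84 ± 0.32 without replicate 1. By the same test it did not pass with Aβ40 fibrils (1.02 ± 0.40, adjusted p = 0.0621), but did without control replicate 3 (1.35, adjusted p = 0.0390). Arg2 passed the filter on low counts in microglia through the fibril-treated libraries, so its calls there are no separate support for a rise.

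Ass1, the first enzyme of the citrulline to arginine route, rose in both cell types from very different starting levels. Control astrocytes held 71.2, 49.5 and 64.8 scaled CPM, Aβ42-treated astrocytes 506, 512 and 493, and Aβ40-treated astrocytes 312, 320 and 327. The groups did not overlap, and the log2 fold changes were 3.02 ± 0.14 (adjusted p = 6.06e-08, edgeR's quasi-likelihood test) and 2.37 ± 0.14 (adjusted p = 3.58e-07). Control microglia held 4, 1 and 3 Ass1 counts, against 50.4, 46.6 and 51.1 scaled CPM with Aβ42 fibrils and 45.6, 35.1 and 27.6 with Aβ40 fibrils. The depth-scaled ratios of summed counts were 123 (95% exact interval 62.3 to 285) and 95.1 (47.8 to 222), with adjusted p = 2.50e-09 and 6.86e-09. Without Aβ42 replicate 1 the former ratio was 123 as well (adjusted p = 2.79e-12, edgeR's quasi-likelihood test). Ass1 passed the filter on low counts in microglia through the fibril-treated libraries, so its calls there are no separate support for a rise.

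Asl, the next enzyme, changed far less. In microglia it went from 48.4 ± 3.15 scaled CPM (SD, n = 3) to 75.3 ± 13.4 with Aβ42 fibrils, a log2 change of 0.66 ± 0.13 (adjusted p = 0.00117, edgeR's quasi-likelihood test; 0.77 ± 0.08 without replicate 1), and did not pass with Aβ40 fibrils (0.29 ± 0.14, adjusted p = 0.117). In astrocytes it was 0.54 ± 0.20 higher with Aβ42 (adjusted p = 0.0602) and 0.59 ± 0.20 higher with Aβ40 fibrils (adjusted p = 0.0461), both near the threshold. Control astrocyte replicate 2, at 32.3 scaled CPM, lay below the other control libraries at 52.3 and 63.2. The Aβ42 difference passed without control replicate 2 (0.32, adjusted p = 0.0488) or replicate 3 (0.78, adjusted p = 0.0113), and the Aβ40 call was lost without control replicate 1 or any Aβ40 library (adjusted p between 0.0748 and 0.151).

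The arginine transporter Slc7a2 rose about as much as Ass1 in microglia. Control microglia held 4.36, 4.06 and 2.29 scaled CPM, Aβ42-treated microglia 431, 346 and 395, and Aβ40-treated microglia 398, 418 and 382. The fibril groups overlapped each other and lay far above the control libraries, with log2 fold changes of 6.76 ± 0.19 (adjusted p = 2.86e-10, edgeR's quasi-likelihood test; 6.67 ± 0.15 without Aβ42 replicate 1) and 6.79 ± 0.19 (adjusted p = 4.16e-10). In astrocytes the levels were 1.39, 1.68 and 2.39 scaled CPM without fibrils, 10.4, 11.2 and 8.65 with Aβ42 and 8.11, 7.86 and 8.83 with Aβ40 fibrils. These changes also passed, at 2.32 ± 0.23 (adjusted p = 1.33e-05) and 2.04 ± 0.23 (adjusted p = 4.12e-05).

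Slc7a1, the transporter that most cells use, changed by less than 1 on the log2 scale. It averaged 98.4 ± 7.40 scaled CPM (SD, n = 3) in control microglia, 148 ± 7.94 with Aβ42 and 157 ± 1.82 with Aβ40 fibrils, with log2 fold changes of 0.58 ± 0.10 (adjusted p = 3.59e-04, edgeR's quasi-likelihood test; 0.54 ± 0.08 without Aβ42 replicate 1) and 0.67 ± 0.10 (adjusted p = 1.58e-04). In astrocytes it rose by 0.46 ± 0.13 with Aβ42 fibrils (adjusted p = 0.0147), a call lost without Aβ42 replicate 3 (adjusted p = 0.0572), and was 0.16 ± 0.13 higher with Aβ40 fibrils (adjusted p = 0.366).

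**Figure D2:**
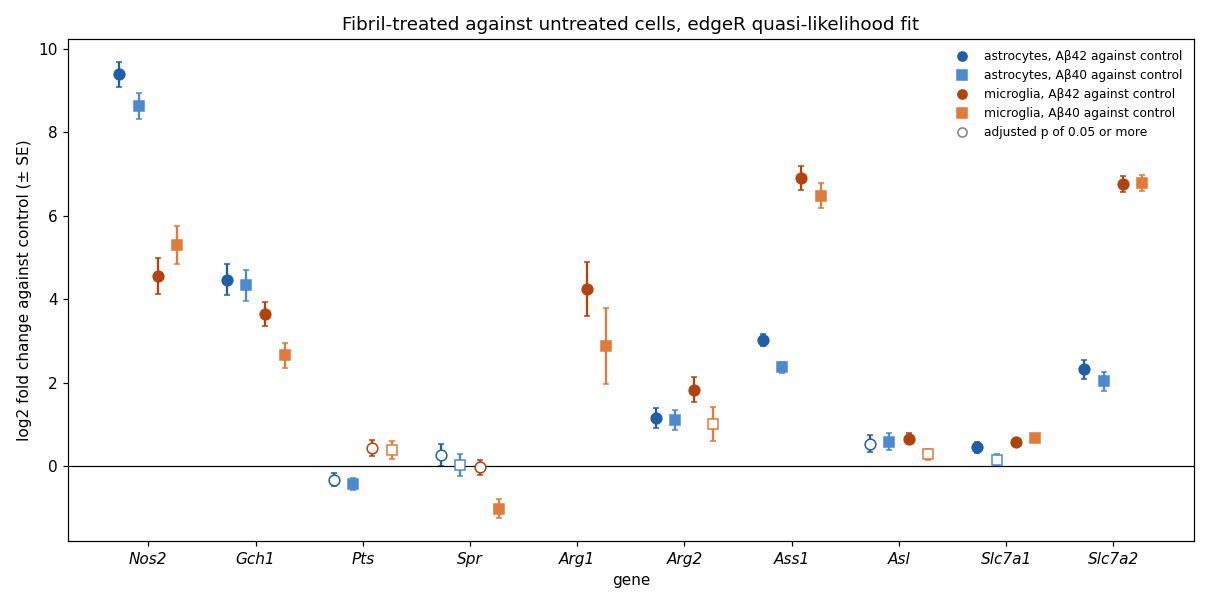
Log2 fold change of each gene against control with its SE, for both fibrils in astrocytes (blue) and microglia (orange); open symbols have an adjusted p of 0.05 or more, and Arg1 was not tested in astrocytes. Nos2 has the highest values in astrocytes (9.39 and 8.63), Ass1 and Slc7a2 in microglia (between 6.49 and 6.91), and Pts, Asl and Slc7a1 stay between -1 and 1.

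Counted together, 6 of the 9 genes tested rose in astrocytes with Aβ42 fibrils and none fell, where 16.5% of all genes tested rose and 20.4% fell. With Aβ40 fibrils 6 rose and 1 fell, against 14.9% and 18.4% of all genes. In microglia 8 of 10 rose with Aβ42 fibrils and none fell, against 27.1% and 26.6% of all genes, and 9 of 10 rose without replicate 1, against 34.6%. With Aβ40 fibrils 6 rose and 1 fell in microglia, against 19.6% and 21.4% of all genes. At 5-fold or more, 4 and 3 genes rose in astrocytes, where 3.03% and 2.82% of all genes did, and 5 and 5 in microglia, where 3.69% and 3.36% did (5 without Aβ42 replicate 1, against 4.18%). Nos2, Gch1 and Ass1 were past 5-fold in all 4 comparisons, and Slc7a2 in all but that of astrocytes with Aβ40 fibrils. In astrocytes Slc7a2 was at the threshold, 5.01-fold with Aβ42 and 4.10-fold with Aβ40 fibrils, and was not called between the fibrils. The median log2 fold change over the tested genes was 1.17 and 1.11 in astrocytes and 2.75 and 1.84 in microglia for Aβ42 and Aβ40, and that of all genes lay between -0.0047 and 0.0096. With Arg1 set against the detection limit of the control microglia libraries, the microglia medians were 2.58 and 1.31. The Aβ42 median in microglia without replicate 1 was 2.86, and 2.43 with Arg1 set so. Both fibrils are compared with the same control libraries, so their counts are not independent of each other. The genes were chosen with earlier results of these data known, so the shares of all genes are a background and not a test. Arg1, Arg2 and Ass1 are among the genes counted in microglia, and Nos2 and Gch1 among those counted in astrocytes. There they passed the filter on low counts through fibril-treated libraries, where they were high. Their calls are no separate support for a rise.

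Between the fibrils, astrocytes showed no called difference in these genes by edgeR's quasi-likelihood test, which called 0.0855% of all genes. The libraries nevertheless did not overlap for Nos2, Ass1 and Slc7a1, 3 of 9 genes, where 18.9% of all genes did not overlap. Nos2 was 0.76 ± 0.18 (log2) higher with Aβ42 than with Aβ40 fibrils (adjusted p = 0.205), Ass1 0.66 ± 0.13 higher (adjusted p = 0.111) and Slc7a1 0.30 ± 0.12 higher (adjusted p = 0.679). Nos2 and Ass1 passed with nearly the same values by DESeq2's Wald test (adjusted p = 1.20e-07 and 1.26e-04) and by edgeR's test when the control libraries were left out of the fit (adjusted p = 0.00221 and 0.00264). An exact permutation test of 3 against 3 libraries cannot go below p = 0.1.

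In microglia, Gch1 and Spr were called between the fibrils, 2 of 10 genes where 20.3% of all genes were. Gch1 was 1.0 ± 0.25 (log2) higher with Aβ42 fibrils (adjusted p = 0.0250, edgeR's quasi-likelihood test) and Spr 0.99 ± 0.22 higher (adjusted p = 0.0195). Both calls were lost when any one of Aβ42 replicates 2 and 3 or the Aβ40 libraries was left out (adjusted p between 0.0644 and 0.121). Nos2 differed in the opposite direction, -0.73 ± 0.37, without passing (adjusted p = 0.164). The values of Nos2 and Gch1 by library show these opposite directions side by side.

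Without Aβ42 replicate 1 the comparison of the fibrils in microglia called 7 of the 10 genes, where it called 53.8% of all genes. That library was singled out for its likeness to the Aβ40 libraries, so leaving it out widens the difference by itself. The Aβ42 libraries that remain held 22274367 and 17687416 counts and the Aβ40 libraries 2271834 to 4425805. Fibril and depth cannot be told apart in this comparison. Nos2 was then lower with Aβ42 than with Aβ40 fibrils, by -1.41 ± 0.20 (log2, adjusted p = 3.13e-05, edgeR's quasi-likelihood test), with means of 515 ± 85.8 (SD, n = 2) and 1366 ± 211 scaled CPM (SD, n = 3). Gch1 was higher by 1.24 ± 0.11 (adjusted p = 5.63e-07), Spr by 1.09 ± 0.19 (adjusted p = 1.96e-04) and Asl by 0.49 ± 0.09 (adjusted p = 3.04e-04). Arg1 (1.22 ± 0.46, adjusted p = 0.0349), Arg2 (0.82 ± 0.32, adjusted p = 0.0431) and Ass1 (0.39 ± 0.14, adjusted p = 0.0255) were higher as well. With all libraries these 3 were at 1.36 ± 0.50, 0.81 ± 0.31 and 0.42 ± 0.16, with adjusted p between 0.0692 and 0.0777. Slc7a2 (-0.11 ± 0.10), Slc7a1 (-0.13 ± 0.08) and Pts (0.07 ± 0.19) did not pass. In these libraries Nos2 and its cofactor enzyme Gch1 thus differed in opposite directions between the fibrils.

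The balance of Nos2 and Arg1 was taken within each library as log2 of the ratio of their counts, each with 0.5 added, which needs no scaling of libraries. In Aβ42-treated microglia it was 7.78, 7.34 and 6.92, and in Aβ40-treated microglia 9.31, 9.29 and 11.2. All Aβ42 libraries, replicate 1 included, lay below all Aβ40 libraries, by 2.58 on the log2 scale between means (p = 0.1, two-sided exact permutation test, the smallest that 3 against 3 allows). Control microglia were at 7.99, 5.86 and 8.04, a mean of 7.30 ± 1.24 (SD, n = 3) from 0 to 3 Arg1 counts, which differed from the Aβ42 mean of 7.35 ± 0.43 by 0.05 (p = 1.0, exact permutation test). With Aβ42 replicate 1 left out, the difference from Aβ40 was -2.80 and that from control -0.17. Nos2 and Arg1 both rose with Aβ42 fibrils in microglia.

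In astrocytes the ratio was 2.23 ± 1.61 (SD, n = 3) without fibrils, 9.68 ± 0.85 with Aβ42 and 9.31 ± 0.40 with Aβ40 fibrils. Both fibril groups lay above all control libraries (p = 0.1 each, exact permutation test), and their difference of 0.36 was within their spread (p = 0.6). The control values rest on 3 to 8 Nos2 and 0 to 2 Arg1 counts.

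**Figure D3:**
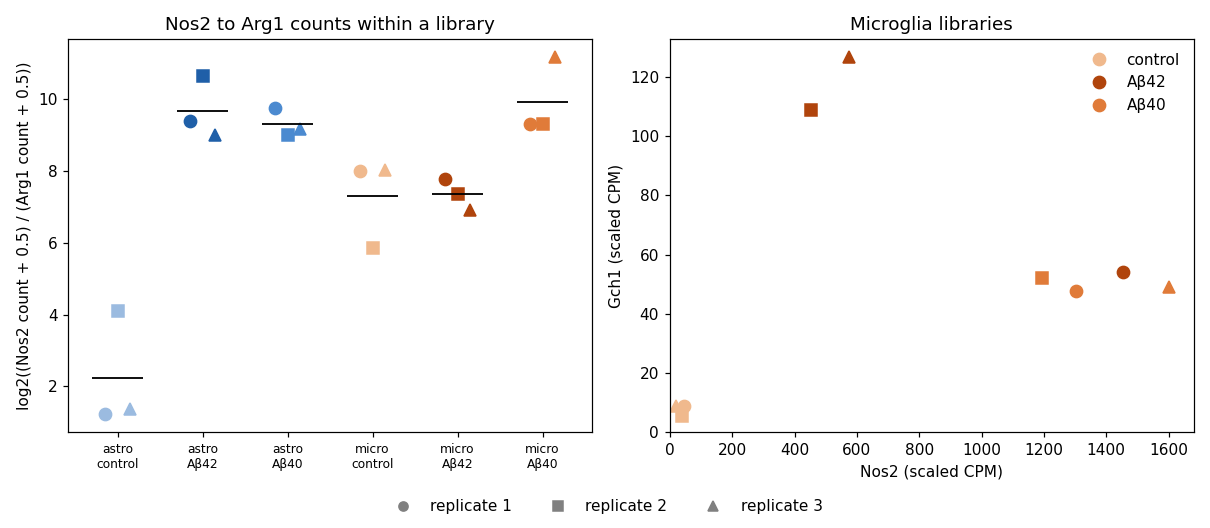
Left, log2 of the ratio of Nos2 to Arg1 counts in each of the 18 libraries with the mean of each group as a bar. Right, Nos2 against Gch1 in the 9 microglia libraries, both in scaled CPM from 0. Aβ42-treated microglia lie below Aβ40-treated microglia at the left (7.35 and 9.93 on average), and at the right the circle of Aβ42 replicate 1 lies among the Aβ40 libraries while the other Aβ42 libraries have lower Nos2 and higher Gch1.

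Untreated microglia and astrocytes were compared in a fit of all 18 libraries (11581 genes, of which 68.8% were called), and 5 of the 10 genes differed. In this and every other comparison of the cell types, cell type cannot be told apart from isolation, culture, plating and any sequencing run. Nos2 was 5.66 ± 0.56 (log2) higher in control microglia (adjusted p = 3.34e-08, edgeR's quasi-likelihood test), Gch1 3.18 ± 0.46 higher (adjusted p = 4.70e-06), Slc7a1 1.78 ± 0.11 higher (adjusted p = 3.07e-11) and Slc7a2 1.08 ± 0.26 higher (adjusted p = 0.00104). Ass1 was lower in microglia by -7.00 ± 0.27 (adjusted p = 4.07e-14). Pts, Spr, Arg1, Arg2 and Asl did not pass, with values between -0.44 and 0.74. Nos2 was at 6.32 without astrocyte control replicate 2 and at 4.85 without replicate 3, and Gch1 at 3.81 without the latter. Scaling by library totals alone moved the median of all genes in this comparison by -0.28 and the share of called genes that were higher in microglia from 49.8% to 37.4%, and Pts then passed as lower.

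The responses of the cell types were compared by an interaction term in the same fit, as the log2 response of microglia minus that of astrocytes. Such a response is a ratio to control and not a difference in level. Control counts were few for Nos2 and Gch1 in astrocytes and for Ass1 in microglia. With Aβ42 fibrils 4 of the 10 genes differed, where 37.3% of all genes did, and with Aβ40 fibrils 7, where 32.5% did. The rise of Nos2 was smaller in microglia, by -4.86 ± 0.67 (log2) with Aβ42 (adjusted p = 1.53e-05, edgeR's quasi-likelihood test; -5.52 ± 0.48 without Aβ42 replicate 1) and by -3.38 ± 0.70 with Aβ40 fibrils (adjusted p = 9.79e-04). Without astrocyte control replicate 2 these were -5.52 and -4.03, and without replicate 3 -4.06 and -2.57. The rise of Ass1 was larger in microglia, by 3.89 ± 0.36 (adjusted p = 9.93e-08) and 4.11 ± 0.36 (adjusted p = 6.03e-08), and that of Slc7a2 by 4.43 ± 0.32 (adjusted p = 3.98e-09) and 4.75 ± 0.32 (adjusted p = 2.23e-09). Without replicate 1 the Aβ42 values of Ass1 and Slc7a2 were 3.90 ± 0.38 and 4.39 ± 0.33, and the same number of genes, 4, was called, with 42.2% of all genes.

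Smaller differences in response were found for the other genes. Pts differed by 0.75 ± 0.24 (log2) with Aβ42 (adjusted p = 0.0201, edgeR's quasi-likelihood test; 0.79 ± 0.24 without replicate 1) and 0.80 ± 0.25 with Aβ40 fibrils (adjusted p = 0.0203). With Aβ40 fibrils alone Gch1 (-1.68 ± 0.55, adjusted p = 0.0249), Spr (-1.06 ± 0.38, adjusted p = 0.0376) and Slc7a1 (0.50 ± 0.15, adjusted p = 0.0160) passed. Gch1 was at -2.31 without astrocyte control replicate 3, and the Spr call was lost with the replicate number as a block (adjusted p = 0.0551). Whether those responses differ between the fibrils was not tested. Each of these calls but those of Nos2, Ass1 and Slc7a2 was lost without at least 1 single library, with adjusted p up to 0.0943.

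On a scale set over both cell types, the mean level of Nos2 was 1516 ± 221 scaled CPM (SD, n = 3) in Aβ40-treated microglia, 920 ± 582 in Aβ42-treated microglia, 526 ± 17.0 in Aβ42-treated and 310 ± 7.56 in Aβ40-treated astrocytes, 38.6 ± 14.7 in control microglia and 0.991 ± 0.73 in control astrocytes. The libraries of Aβ42-treated microglia, from 515 to 1587, overlapped both neighbours in this order, and the groups below did not overlap. Without replicate 1 Aβ42-treated microglia averaged 586 ± 99.7 (SD, n = 2), below all Aβ40-treated microglia and overlapping Aβ42-treated astrocytes. The order of Ass1 was another one, with 478 ± 6.05 in Aβ42-treated, 302 ± 5.24 in Aβ40-treated and 57.8 ± 10.4 in control astrocytes, then 55.4 ± 2.72 in Aβ42-treated, 40.1 ± 10.3 in Aβ40-treated and 0.415 ± 0.17 in control microglia. Control astrocytes and Aβ42-treated microglia (55.6 without replicate 1) overlapped, and the other neighbours did not. For Slc7a2 the fibril-treated microglia led with 443 ± 23.2 (Aβ40) and 438 ± 40.7 (Aβ42, or 422 ± 41.1 without replicate 1), which overlapped, and the other groups followed without overlap, 9.56 ± 1.16 and 7.81 ± 0.49 in Aβ42- and Aβ40-treated astrocytes, 3.97 ± 1.26 in control microglia and 1.70 ± 0.46 in control astrocytes.

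Because each culture can hold RNA of the other cell type, the level in astrocytes was set as a percent of that in microglia of the same treatment, beside the summed microglial markers. In bulk RNA, fewer cells of a type and less RNA per cell cannot be told apart. The 10 microglial markers stood in astrocytes at 4.13% of their level in microglia without fibrils, 5.09% with Aβ42 (5.72% without replicate 1) and 3.77% with Aβ40 fibrils. Their sum was lower with fibrils in astrocytes (374, 164 and 141 scaled CPM) and in microglia themselves (9057, 3225 and 3732, or 2868 with Aβ42 fibrils without replicate 1). In astrocytes 10, 8 and 9 of the 10 markers were above the detection limit. Cx3cr1 was not with either fibril, nor was it in Aβ40-treated microglia, and P2ry12 was not with Aβ42 fibrils.

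Nos2 stood in astrocytes at 2.56% of microglia without fibrils, below the markers, and at 57.2% with Aβ42 (89.7% without microglia Aβ42 replicate 1) and 20.5% with Aβ40 fibrils, above them. Gch1 stood at 9.65%, 19.7% (16.0% without that library) and 35.4%. Slc7a2 differed from both, at 42.8% without fibrils and at 2.18% (2.27% without that library) and 1.76% with Aβ42 and Aβ40 fibrils, below the markers. The part of microglial RNA in the rise of Slc7a2 in astrocytes was not tested.

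In the other direction, the 10 astrocyte markers stood in microglia at 3.23%, 5.34% and 4.57% of their level in astrocytes for control, Aβ42 and Aβ40 fibrils. Their sum in microglia was 294 ± 17.9, 300.3 ± 22.6 and 284 ± 16.9 scaled CPM (SD, n = 3). These sums overlapped between the microglia groups. Ass1 stood in microglia at 0.718% of its level in astrocytes without fibrils, below the markers, and at 11.6% and 13.3% with Aβ42 and Aβ40 fibrils, above them. The Aβ42 values without replicate 1 were 5.37% for the markers and 11.6% for Ass1. The part of astrocyte RNA in the rise of Ass1 in microglia was not tested.

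**Figure D4:**
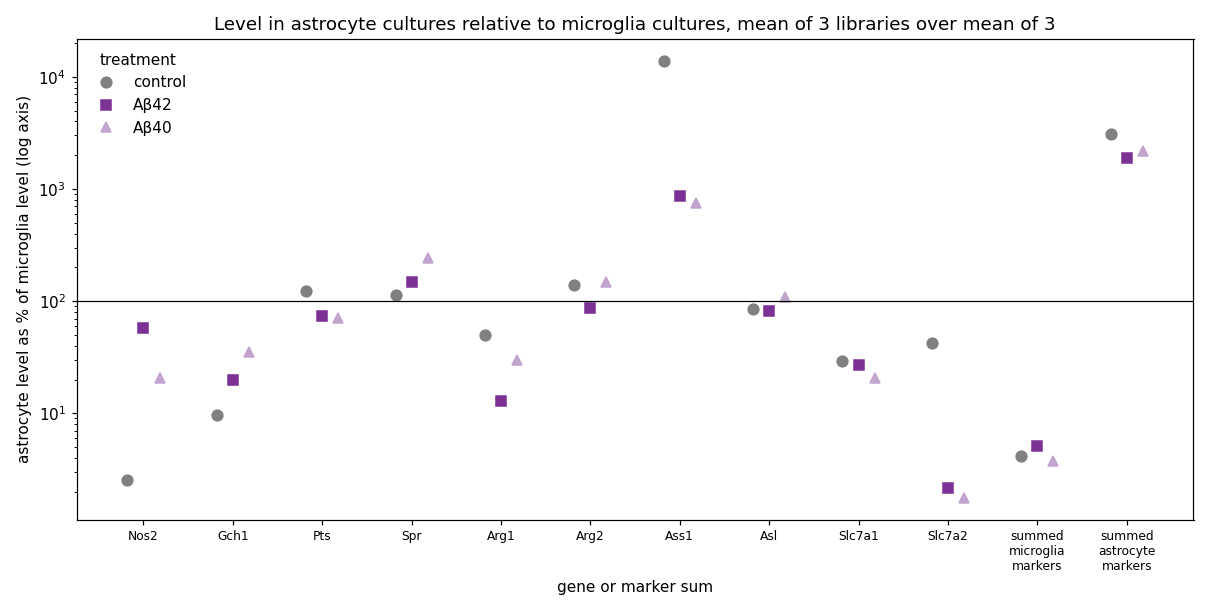
Mean level in astrocytes as a percent of the mean in microglia of the same treatment (log axis, both cell types on 1 scale, 3 libraries each), for the 10 genes and for the summed markers of each cell type. With fibrils Nos2 and Gch1 lie above the microglial markers and Slc7a2 below them (2.18% and 1.76% against 5.09% and 3.77%).

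The genes whose pattern over the 6 groups was most like that of Nos2 were Lcn2, Cxcl1 and Oasl, with root mean square differences of 0.99, 1.0 and 1.11 on the log2 scale among 11571 genes. Lcn2 was at 28.3 scaled CPM in control astrocytes and 2714 and 2130 with Aβ42 and Aβ40 fibrils, and at 82.6, 4471 (4008 without Aβ42 replicate 1) and 5017 in microglia. The genes most like Arg1 were Akr1b1 and Itpr3, with 0.13 and 0.32, and a row named Mir22 between them. Akr1b1 was at 133 scaled CPM in control microglia, 1117 ± 202 (SD, n = 3) with Aβ42 (1221 without replicate 1) and 396 ± 11 with Aβ40 fibrils, and at 155, 199 and 194 in astrocytes. Without microglia Aβ42 replicate 1 the genes were Lcn2, Cxcl1 and Ifit3 for Nos2, and Itpr3, Fam213b and the row named Mir22 for Arg1. Patterns were taken as log2 of scaled CPM with 0.5 added. The group means of Arg1 lay between 0.131 (control astrocytes) and 5.18 scaled CPM (Aβ42-treated microglia), so the added value flattens its changes. Its likeness to other genes holds on that scale only. Such likeness is a description of 6 group means.

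A wider list held 55 genes around the same pathway, of which 54 were found in the tables. Of the 45 tested in astrocytes, 10 rose and 10 fell with Aβ42 fibrils (16.5% and 20.4% of all genes) and 9 rose and 11 fell with Aβ40 fibrils (14.9% and 18.4%). Of the 39 tested in microglia, 14 rose and 8 fell with Aβ42 fibrils (27.1% and 26.6% of all genes) and 8 rose and 9 fell with Aβ40 fibrils (19.6% and 21.4%). Without Aβ42 replicate 1 these were 19 and 11 of 40 (34.6% and 35.7%). The median log2 fold changes of the wider list lay between -0.12 and 0.28 (0.31 with Aβ42 fibrils in microglia without replicate 1).

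Among the nitric oxide synthase partners and methylarginine enzymes, Ddah1, which breaks down the endogenous inhibitor of the synthases, fell in astrocytes by -1.26 ± 0.15 (log2) with Aβ42 and -1.0 ± 0.15 with Aβ40 fibrils (adjusted p = 5.43e-05 and 3.11e-04, edgeR's quasi-likelihood test). Among the biopterin genes beside the members, Pcbd1, which helps to regenerate reduced pterins, fell in astrocytes with both fibrils (-1.47 ± 0.24 and -1.28 ± 0.23), and Qdpr, which also does, rose in microglia with both (0.85 ± 0.13, or 0.95 ± 0.10 without Aβ42 replicate 1, and 0.57 ± 0.14). Gatm and Gamt, the enzymes of creatine synthesis from arginine, fell in all 4 comparisons, Gatm by -2.15 ± 0.14 and -2.04 ± 0.14 in astrocytes. Slc3a2, the heavy chain partner of amino acid exchangers, rose in microglia by 1.40 ± 0.09 with Aβ42 (1.43 ± 0.08 without replicate 1) and 0.98 ± 0.09 with Aβ40 fibrils. These genes were picked for the text after their values were seen.

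Genes past 5-fold included Azin2, Slc7a7, Irf1 and Cebpb. Azin2, an antizyme inhibitor that raises polyamine synthesis, rose by 2.84 ± 0.41 (log2) in microglia with Aβ42 fibrils (adjusted p = 1.12e-04, edgeR's quasi-likelihood test; 2.98 ± 0.31 without replicate 1) and was not called with Aβ40 fibrils (1.11 ± 0.61, adjusted p = 0.173). It was also higher with Aβ42 than with Aβ40 fibrils, by 1.73 ± 0.42 (adjusted p = 0.0232; 1.87 ± 0.32 without replicate 1). Slc7a7, a transporter that exports arginine, fell in all 4 comparisons, by -2.76 ± 0.30 in astrocytes with Aβ40 fibrils. It was 3.66 ± 0.22 higher in control microglia than in control astrocytes, and in astrocytes it fell together with the summed microglial markers, whose part in that fall was not tested.

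Among transcription factors known at Nos2 or Arg1, Irf1, Nfkb1, Rela, Hif1a and Stat6 rose in astrocytes with both fibrils. Irf1, a factor of the interferon response, rose there by 2.41 ± 0.13 (log2) with Aβ42 and by 2.53 ± 0.13 with Aβ40 fibrils (adjusted p = 2.09e-07 and 1.66e-07 by edgeR's quasi-likelihood test). In microglia Irf1 was at 0.02 ± 0.12 and 0.03 ± 0.13, and neither value passed. Its response differed between the cell types, by -2.39 ± 0.18 with Aβ42 fibrils (adjusted p = 9.67e-09; -2.26 ± 0.16 without replicate 1) and by -2.51 ± 0.19 with Aβ40 fibrils (adjusted p = 7.40e-09). Its level without fibrils was higher in microglia, by 0.97 ± 0.13. The NF-κB subunit Rela, in contrast, fell in microglia by -0.40 ± 0.10 with Aβ42 and -0.50 ± 0.11 with Aβ40 fibrils (adjusted p = 0.00680 and 0.00223), while Nfkb1 rose there by 0.61 ± 0.10 and 0.59 ± 0.10 (adjusted p = 3.30e-04 and 5.10e-04). Without Aβ42 replicate 1 the Aβ42 values were -0.48 ± 0.08 for Rela and 0.67 ± 0.08 for Nfkb1. These genes but Irf1 were picked after their values were seen.

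Cebpb, a basic leucine zipper factor, rose in all 4 comparisons with control, and most in microglia with Aβ42 fibrils. It rose in microglia by 3.77 ± 0.34 (log2) with Aβ42 (4.07 ± 0.13 without replicate 1) and 2.09 ± 0.34 with Aβ40 fibrils (adjusted p = 2.01e-06 and 3.77e-04, edgeR's quasi-likelihood test) and in astrocytes by 1.90 ± 0.31 and 1.86 ± 0.31. The rise with Aβ42 fibrils was larger in microglia by 1.86 ± 0.49 (adjusted p = 0.00529; 2.20 ± 0.38 without replicate 1). Between the fibrils Cebpb was 1.67 ± 0.31 higher in microglia with Aβ42 (adjusted p = 0.0115). Without replicate 1 Cebpb was 2.00 ± 0.12 higher (adjusted p = 2.70e-08). Gch1, Spr, Arg1, Arg2, Ass1 and Asl had the same direction. Pts did too by a small amount (0.04 ± 0.20), which reversed without some single libraries. With all libraries only Gch1 and Spr were called. Nos2 had the opposite direction, at -0.73 ± 0.37 (-1.41 ± 0.20 without replicate 1), and so had Slc7a1 and Slc7a2 by small amounts. The part of Cebpb in these differences was not tested.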

How the data were processed

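The 10 genes, the wider list of 55 genes and the marker lists were chosen with earlier results of these data known. The authors deposited 1 table of counts per library, whole numbers of reads per gene symbol that are not normalized. Per the labels and the study's methods, mRNA libraries (TruSeq Stranded) were aligned to rn5 with STAR, and Salmon and DESeq2 are named in the submitters' processing notes, with versions not given in the sources used here. The tables also list reads on no single gene, 26.0% to 34.2% of a library in astrocytes and 21.7% to 24.5% in microglia, which were left out. Counts on genes were 3674043 to 19013919 in astrocytes and 2271834 to 22274367 in microglia.

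Counts were analysed with edgeR 4.0.16 in R 4.3.3 (TMM, filterByExpr, glmQLFit, glmQLFTest, no covariates, Benjamini-Hochberg over all genes tested), with the 9 libraries of a cell type in 1 fit and all 18 in another for comparisons of cell types. SE is the log2 fold change divided by the square root of the F statistic. Alternatives were DESeq2 1.42.0 (Wald test and size factors), library totals, no filter, 10 counts in every library, the replicate number as a block, the compared groups alone, a 5-fold threshold, and leaving out each library. Exact permutation tests were run with scipy 1.17.1. Simulated 4-fold changes in 200 genes were called in 99% of cases in astrocytes and 100% in microglia for Aβ42 against control. The simulated counts had the same dispersion for every gene and means taken over all libraries of a cell type. They do not show how often smaller changes, or changes in genes with a wider spread, would be called. All 10 genes were named, genes of the wider list at 5-fold or more with an adjusted p under 0.05 against control, and the 3 genes most like Nos2 and Arg1. Some genes of the wider list are not reported here.

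Replicate numbers were checked for pairing by the correlation of deviations from group means. Only 2 of 9 pairs in astrocytes and 1 of 9 in microglia exceeded 0.1, so the numbers were not taken to pair the libraries.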

Additional observations from a re-analysis of the deposited data

Results flagged for a closer look

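The response to fibrils differed between the cell types, by the interaction term of edgeR's quasi-likelihood test in the fit of 18 libraries, for 4 of 10 genes with Aβ42 and 7 of 10 with Aβ40 fibrils, where 37.3% and 32.5% of all genes differed. The Aβ42 share is near that of all genes, and cell type cannot be told apart from isolation, culture and plating. These responses are ratios to control, with few control counts for Nos2 and Gch1 in astrocytes and for Ass1 in microglia. With Aβ42 fibrils, the log2 response in microglia minus that in astrocytes was -4.86 for Nos2, 0.75 for Pts, 3.89 for Ass1 and 4.43 for Slc7a2. With Aβ40 fibrils it was -3.38 for Nos2, -1.68 for Gch1, 0.80 for Pts, -1.06 for Spr, 4.11 for Ass1, 0.50 for Slc7a1 and 4.75 for Slc7a2. Groups of 3 libraries are too small for a test of single libraries that stand apart.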

How the results depend on the processing

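Of the fold changes of single genes over all alternatives, 1157 kept their direction and side of the threshold, 73 no longer passed, 20 came to pass and 17 changed direction. Counts of genes called that follow are in the order astrocytes, microglia, cell types, and the cause of a change was not tested unless stated. Shares of all genes under these settings are not given, so the counts are set only against the main counts of these genes. With at least 10 counts in every library, which left 5, 7 and 4 of the genes tested, 2 genes rose with Aβ42 and 1 with Aβ40 fibrils in astrocytes, 5 rose with Aβ42 fibrils in microglia, control microglia had 1 gene higher and 0 lower, and the responses had 1 higher and 0 lower (Aβ42) and 2 higher and 0 lower (Aβ40). This filter took out Nos2, Gch1, Arg2 and Slc7a2 in astrocytes and Arg1, Arg2 and Ass1 in microglia. These genes had few counts in some libraries and were left untested whatever their fold change. At 5-fold, astrocytes with Aβ40 fibrils had 3 higher and 0 lower, microglia 5 higher with Aβ42 and 0 lower with Aβ40 fibrils and 0 between the fibrils, control microglia 2 higher, and the Aβ40 response 2 higher and 1 lower. The fall of Pts in astrocytes with Aβ40 fibrils (1 gene) was 0 genes without a filter, with DESeq2's Wald test and with the compared groups alone. Those last settings called 2 genes (DESeq2) and 2 genes (groups alone) between the fibrils in astrocytes, and groups alone called 0 in microglia. Library totals gave 2 genes lower in control microglia, -0.0106 for Spr in astrocytes with Aβ40 fibrils and -0.0654 for Asl between control cells.

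With the replicate number as a block, 0 genes fell in astrocytes with Aβ40 fibrils and 1 was higher with Aβ42 than with Aβ40 fibrils in microglia (Gch1 at an adjusted p of 0.0513, edgeR). It moved no other count by over 1.5 times and also ended the call of Spr for the Aβ40 response between cell types (adjusted p = 0.0551, or 0.0516 with at least 10 counts in every library). The same-numbered libraries had correlations of deviations between -0.59 and 0.40.

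Leaving out single libraries gave 0 to 1 genes lower in astrocytes with Aβ40 fibrils, 0 to 6 higher and 0 to 1 lower between the fibrils in microglia (6 and 1 without Aβ42 replicate 1) and 1 to 3 with a lower Aβ40 response. Fold changes that crossed 0 were -0.20 to 0.20 (Spr, astrocytes, Aβ40), -0.0925 to 0.0273 (Asl, astrocytes, between fibrils), -0.17 to 0.0786 (Spr, microglia, Aβ42), -0.0837 to 0.19 (Pts) and -0.11 to 0.04995 (Slc7a2) between fibrils in microglia, -0.69 to 1.30 (Arg1) and -0.0132 to 0.44 (Asl) between control cells, -0.12 to 0.34 (Asl, Aβ42 response) and -0.33 to 0.20 (Arg2, Aβ40 response). The Nos2 to Arg1 ratio gave -0.12 to 0.70 between the fibrils in astrocytes and -0.67 to 0.42 for Aβ42 against control in microglia. Depth limits Arg1, with 0 to 3 counts in each control library.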
